A study of Homo sapiens with 16 samples.

Results

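The comparison described here set human 293T cells depleted of hnRNP L directly against 293T cells depleted of SETD2, without the scramble control entering the test. 293T is a human embryonic kidney line that carries the SV40 large T antigen. The members are 4 of the 16 samples of the series: wild-type cells given siRNA against hnRNP L (replicates 1 and 2) and wild-type cells given siRNA against SETD2 (replicates 2 and 3), all collected 72 h after transfection. Wild-type cells given a scramble siRNA (replicates 1 and 2) were measured in the same RNA-seq table and are quoted here as a reference level, and 10 ChIP-seq samples of the series were not analysed here. An action of a siRNA other than on its target cannot be told apart here from depletion of the target. Of 58884 genes in the table, the 16300 with a mean of at least 0.5 TPM (a share of RNA scaled by transcript length and library) over the 6 RNA-seq libraries were tested.

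SETD2 is the methyltransferase that places the third methyl group on lysine 36 of histone H3 (H3K36me3) behind elongating RNA polymerase II. hnRNP L is an abundant nuclear RNA-binding protein that recognises CA-rich stretches and regulates splice site choice, polyadenylation and RNA stability. The study examines a physical link between these proteins, and a direct contrast of their depletions asks in which genes the transcriptomes of the depleted cells part from each other. A direct difference does not by itself say which siRNA group moved, so scramble levels are given beside the genes described by their values in each library. In bulk RNA a lower level per cell and a smaller number of expressing cells cannot be told apart.

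Both targets were depleted in the libraries labelled for them. HNRNPL (ENSG00000104824, chr19:38836370-38852347 on the minus strand of hg38) stood at 25.04 and 28.8 TPM in the hnRNP L siRNA libraries, 395 and 413 in the SETD2 siRNA libraries and 341 and 457 in the scramble libraries. Its direct log2 difference, hnRNP L siRNA minus SETD2 siRNA, was -3.89, SE 0.0883, adjusted p = 0.000164, a 14.8-fold lower level, and its locus is overlapped by 2 further genes on that strand. SETD2 (ENSG00000181555, chr3:47016428-47164113 on the minus strand) stood at 4.24 and 4.91 TPM in the SETD2 siRNA libraries, 10.8 and 10.2 in the hnRNP L siRNA libraries and 13.4 and 11.7 with scramble, a direct log2 difference of 1.12, SE 0.129, adjusted p = 0.0121. The depletion of HNRNPL was therefore deeper on the RNA scale than that of SETD2, and the level of each target differed from the other depletion without overlap of libraries. HNRNPL did not pass the test against scramble in the SETD2 siRNA libraries (log2 difference 0.03, adjusted p = 0.944), nor did SETD2 in the hnRNP L siRNA libraries (-0.24, adjusted p = 0.269).

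Within a siRNA group the libraries correlated across genes at 0.9877 for SETD2 and 0.9875 for hnRNP L (Pearson's r of log2(TPM + 0.5)), and between the groups at 0.9763 to 0.9792. Transcripts of the mitochondrial genome took 6.73% and 6.7% of TPM in the SETD2 siRNA libraries, 10.86% and 8.8% in the hnRNP L siRNA libraries, and 17.52% and 7.86% with scramble. All 8 genes fixed as markers of 293T cells were above 1 TPM in every library, from vimentin (VIM) at 649.5 to 940.78 TPM to PAX2 at 1.65 to 2.79. Of 11 markers of other cell types, PTPRC, VWF and MYH6 were listed at 0 in all libraries, and the summed level of the 11 was 7.1 and 9.72 TPM with SETD2 siRNA and 5.69 and 6.37 with hnRNP L siRNA.

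Altogether 991 genes (6.08% of those tested) differed between the depletions by more than 1.5-fold with an adjusted p below 0.05. With hnRNP L siRNA 326 genes (2% of those tested) were higher and 665 (4.08%) were lower than with SETD2 siRNA. The libraries did not overlap for any of the 991, as was so for 59.8% of all genes tested. A change of scaling shifted this split: the median log2 difference of all genes was -0.099, and when libraries were scaled by median ratios 461 genes were higher and 389 lower. Quantile normalization gave 450 higher and 414 lower. Across the main fit and both scalings, 318 genes were called higher each time and 381 were called lower each time. Few calls were left when a library was left out: leaving out any of the 4 gave 0 to 28 genes higher and 0 to 6 lower, and 51 to 81 higher and 71 to 158 lower when the scramble libraries helped to estimate the spread. The fewest calls, 0 higher and 0 lower, came without SETD2 siRNA replicate 2 or 3, and the most in the 4-library fit without hnRNP L siRNA replicate 1. An exact two-sided permutation test of a single gene over 2 against 2 libraries cannot go below p = 0.333, so calls rest on the limma fit across all genes.

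**Figure D1:**
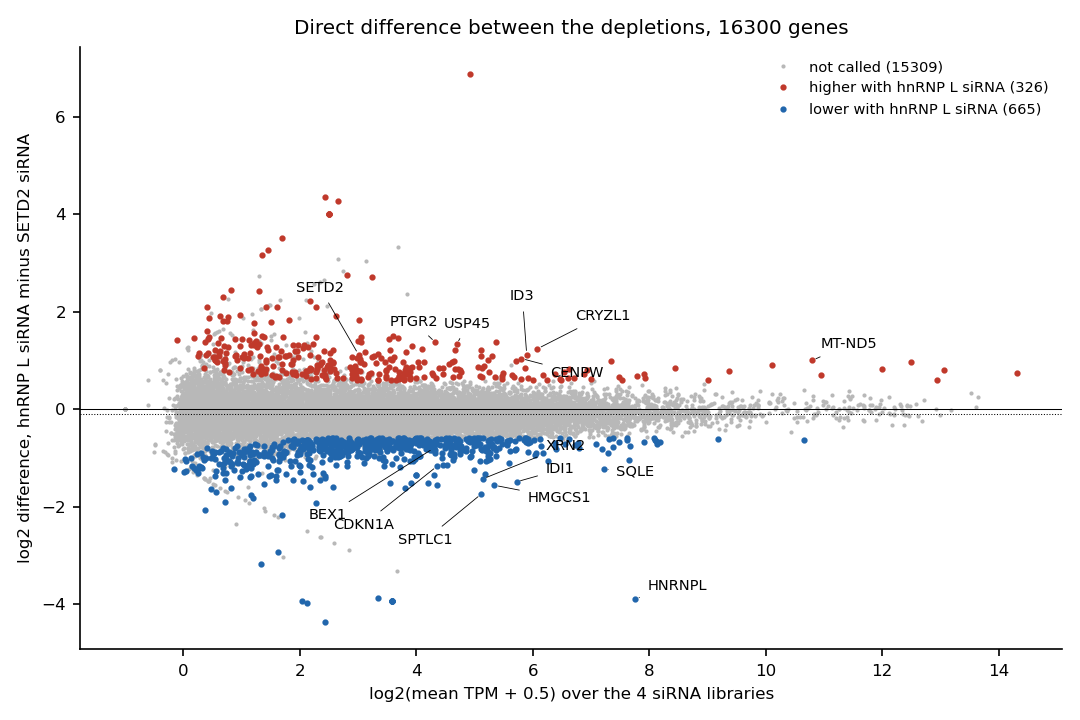
Each point is a gene, with log2(mean TPM + 0.5) over the 4 siRNA libraries on the horizontal axis and the log2 difference, hnRNP L siRNA minus SETD2 siRNA, on the vertical axis; red points (326) were higher and blue points (665) lower with hnRNP L siRNA, and the dotted line is the median of all genes. HNRNPL lies far below the other genes of its level at -3.89 and SETD2 lies at 1.12.

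Long non-coding RNAs made up 134 of the 326 higher genes and protein-coding genes 136, whereas 551 of the 665 lower genes were protein-coding and 76 were long non-coding. Set against the numbers tested, 7.47% of 1794 long non-coding RNAs and 1.06% of 12802 protein-coding genes were higher, while 4.24% and 4.3% were lower. The higher genes had a median fold of 1.89 and the lower genes of 1.73, with 138 and 153 beyond 2-fold and 20 and 14 beyond 4-fold. Called genes were less abundant than the 9.51 TPM median of all genes tested, at medians of 5.49 TPM for the higher and 8.36 TPM for the lower genes.

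Scramble levels placed most called genes on the hnRNP L side. Of the 326 higher genes, the scramble mean lay nearer to the SETD2 siRNA mean for 245 and nearer to the hnRNP L siRNA mean for 81, and of the 665 lower genes the numbers were 587 and 78. Among all genes tested, the scramble mean lay nearer to SETD2 siRNA for 61.5%. For 125 of the higher genes both SETD2 siRNA libraries lay below and both hnRNP L siRNA libraries above the scramble range. For 271 of the lower genes the order was the reverse. This placement was not counted over all genes tested, and called genes were chosen for a large difference. Nothing is therefore read from these counts. With 2 scramble libraries this placement is a description and was not tested.

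The 12 protein-coding genes named for the largest direct difference with hnRNP L siRNA higher were of varied function. HOOK3, a microtubule adaptor for dynein, stood at 5.22 and 6.59 TPM with SETD2 siRNA, 17.3 and 17.8 with hnRNP L siRNA and 6.88 and 5.90 with scramble, a direct log2 difference of 1.5, SE 0.138, adjusted p = 0.00883. The prostaglandin reductase PTGR2 stood at 10.3 and 11.1 TPM with SETD2 siRNA, 26.9 and 30.3 with hnRNP L siRNA and 12.5 and 14.4 with scramble (log2 difference 1.37, SE 0.106, adjusted p = 0.00707). CRYZL1, a quinone oxidoreductase-like protein, stood at 40.8 and 38.7 TPM with SETD2 siRNA, 89.7 and 99.7 with hnRNP L siRNA and 40.6 and 45.2 with scramble (log2 difference 1.24, SE 0.0851, adjusted p = 0.00621). In these genes scramble lay nearer to SETD2 siRNA than to hnRNP L siRNA. DENND1A, an exchange factor for the endosomal GTPase Rab35, rose from 14.3 and 15.2 TPM with SETD2 siRNA to 34.8 and 34.97 with hnRNP L siRNA, with scramble at 14.8 and 18.7 (log2 difference 1.22, SE 0.0878, adjusted p = 0.00652). RAP1GAP2, which turns off Rap1, rose from 8.33 and 8.05 to 17.5 and 20.9 TPM, with scramble at 8.58 and 9.27 (1.17, SE 0.122, adjusted p = 0.0101). In USP45, a deubiquitinase, scramble (20.8 and 22.4 TPM) lay between SETD2 siRNA (13.9 and 14.6) and hnRNP L siRNA (35.9 and 37.2; log2 difference 1.33, SE 0.0876, adjusted p = 0.0057). L3HYPDH, DGKH and WDR78 were also higher, by 1.3, 1.22 and 1.16 on the log2 scale, the proline metabolite dehydratase, a diacylglycerol kinase and an axonemal dynein chain respectively. For WDR78 scramble (3.52 and 6.58 TPM) lay between SETD2 siRNA (3.17 and 2.94) and hnRNP L siRNA (7.45 and 7.41). AC015813.2, AP002495.2 and AC022506.1 were the other genes named, but they are read-through or overlapping annotations (AC015813.2 overlaps SRSF1, and AC022506.1 overlaps DDIT3), so their reads may belong to the neighbour. HOOK3, PTGR2, CRYZL1, DENND1A, L3HYPDH and DGKH also overlap annotated genes on their own strand, and sharing of reads there was not examined. AC015813.2 stood at 22.6 and 22.37 TPM with SETD2 siRNA, 63.45 and 54.68 with hnRNP L siRNA and 47.84 and 41.6 with scramble. Its difference from scramble passed the test with SETD2 siRNA (-0.97, adjusted p = 0.0216) and not with hnRNP L siRNA (0.4, adjusted p = 0.0614). AC022506.1 was listed at 0 in both SETD2 siRNA and both scramble libraries and at 4.38 and 18.8 TPM with hnRNP L siRNA.

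Besides HNRNPL itself, the protein-coding genes named for the largest direct difference with hnRNP L siRNA lower were likewise of varied function. SPTLC1, a subunit of the serine palmitoyltransferase that opens sphingolipid synthesis, stood at 51.99 and 53.8 TPM with SETD2 siRNA, 14.2 and 16.9 with hnRNP L siRNA and 59.9 and 55.6 with scramble, a direct log2 difference of -1.74, SE 0.108, adjusted p = 0.00479. NLGN2, a neuroligin of inhibitory synapses, stood at 19.2 and 22 TPM with SETD2 siRNA, 5.98 and 6.83 with hnRNP L siRNA and 24.7 and 20.9 with scramble (-1.61, SE 0.126, adjusted p = 0.00707). The homeobox gene MEIS3 fell from 30.5 and 29.8 TPM with SETD2 siRNA to 9.81 and 10.2 with hnRNP L siRNA, with scramble at 26.3 and 29.6 (-1.55, SE 0.0918, adjusted p = 0.00474). In all 3 genes the SETD2 siRNA and scramble libraries lay close together. XRN2, the nuclear 5′ to 3′ exoribonuclease that acts in transcription termination, stood at 48.3 and 53.7 TPM with SETD2 siRNA, 17.9 and 19.2 with hnRNP L siRNA and 50.9 and 54.7 with scramble (-1.43, SE 0.0946, adjusted p = 0.0057). UBLCP1, a phosphatase of the nuclear proteasome, stood at 27.3 and 28.6 TPM with SETD2 siRNA, 10.1 and 11.1 with hnRNP L siRNA and 23.1 and 23.7 with scramble (-1.36, SE 0.0997, adjusted p = 0.00652). NIT2, an amidase, GALM, the galactose mutarotase, and LYPLAL1, a lysophospholipase-like hydrolase, each had a log2 difference of -1.51. AC099811.2, which overlaps KAT2A and RAB5C, was listed at 14.04 and 22.04 TPM with SETD2 siRNA and at 0 and 2.56 with hnRNP L siRNA. Its scramble libraries stood at 4.07 and 0 TPM, nearer to hnRNP L siRNA than to SETD2 siRNA. The reads of AC099811.2 could belong to the genes it overlaps.

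**Figure D2:**
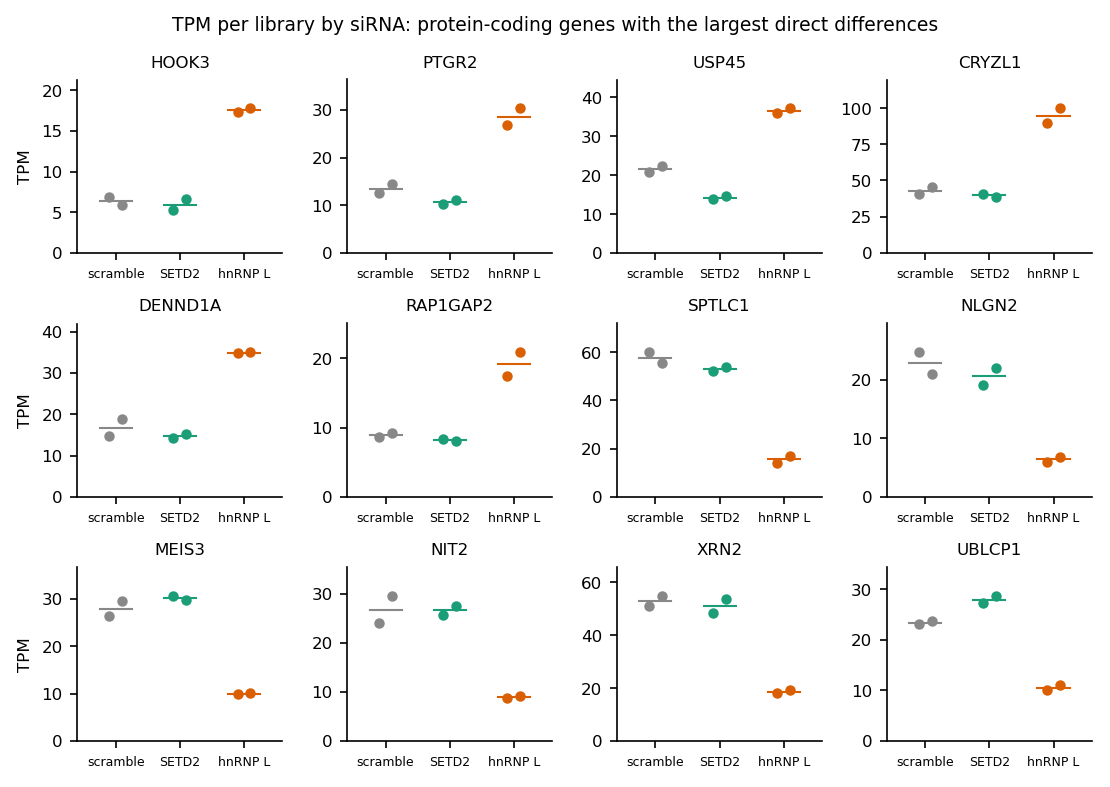
TPM per library for 12 protein-coding genes from the lists with the largest direct differences, with 2 libraries (points) and their mean (line) for scramble, SETD2 and hnRNP L siRNA, each vertical axis starting at 0. In all 12 panels the 2 hnRNP L siRNA libraries lie apart from the other 4, as in SPTLC1 at 14.2 and 16.9 TPM, and the USP45 panel shows SETD2 siRNA below scramble as well.

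Of the 31 gene lists examined, sterol synthesis and uptake held the largest share of lower genes. The lists and their members were picked with earlier results of these data known, so their ranks and shares are descriptions only. Cells make cholesterol from acetyl-CoA through the mevalonate pathway, and the membrane-bound transcription factor encoded by SREBF2 switches on most of its enzymes when sterols are scarce. Of 24 tested members, 15 (62.5%) were lower with hnRNP L siRNA and 0 were higher, against 4.08% lower among all genes. All 24 log2 differences were negative, from -1.56 to -0.09, as were those of 10464 of the 16300 genes tested. The list median was -0.73 against -0.099 over all genes, and 23 of 24 members lay below the latter. Set against scramble, the median of the list was -0.08 with SETD2 depleted and -0.71 with hnRNP L depleted. With median-ratio scaling 13 members were lower, and the list median was -0.62.

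SREBF2 itself stood at 47.8 and 55.4 TPM with SETD2 siRNA, 19.1 and 21.2 with hnRNP L siRNA and 60.5 and 52.6 with scramble, a direct log2 difference of -1.33, SE 0.109, adjusted p = 0.00774. HMGCS1, which makes the HMG-CoA used by the pathway, stood at 54.5 and 65.2 TPM with SETD2 siRNA, 17.99 and 22.1 with hnRNP L siRNA and 60.6 and 54.8 with scramble (-1.56, SE 0.136, adjusted p = 0.00867). The libraries of the depletions did not overlap in either gene, and SETD2 siRNA lay close to scramble. Next along the pathway, IDI1, the isopentenyl diphosphate isomerase, fell from 76.4 and 78.4 TPM with SETD2 siRNA to 26.6 and 27.9 with hnRNP L siRNA, with scramble at 75.4 and 75.2 (-1.49, SE 0.0763, adjusted p = 0.00291). FDPS, which makes farnesyl diphosphate, fell from 259 and 252 to 152 and 152 TPM, with scramble at 216 and 241 (-0.75, SE 0.0611, adjusted p = 0.00774). Squalene epoxidase, SQLE, fell from 192 and 228 to 85.9 and 91.7 TPM, with scramble at 248 and 225 (-1.23, SE 0.0974, adjusted p = 0.00707). Among late enzymes of the pathway, MSMO1 stood at 42.7 and 45.5 TPM with SETD2 siRNA, 19.1 and 17.4 with hnRNP L siRNA and 59.9 and 56.9 with scramble (-1.25, SE 0.0924, adjusted p = 0.00663). NSDHL stood at 52.9 and 49.6 TPM with SETD2 siRNA, 23.8 and 26.4 with hnRNP L siRNA and 46.2 and 46.8 with scramble (-1.02, SE 0.0913, adjusted p = 0.00883). In MSMO1 the SETD2 siRNA libraries lay below scramble as well, and in NSDHL they lay above it. LSS, PMVK, ACAT2, HSD17B7 and FDFT1 were lower by the test at log2 differences between -0.83 and -0.61. Among members that did not pass both thresholds, the sensor INSIG1 stood at 174 and 197 TPM with SETD2 siRNA, 115 and 138 with hnRNP L siRNA and 251 and 236 with scramble (-0.55), while SC5D stood at 45.5 and 46.6 TPM with SETD2 siRNA, 41.5 and 44.9 with hnRNP L siRNA and 75.8 and 68.3 with scramble (-0.09). With any of the 4 libraries left out, 0 or 1 member passed (1 without hnRNP L siRNA replicate 1), and 7 to 9 with the scramble libraries in the fit.

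Promoters of 4 members that fell, picked without a rule set in advance, are shown for a sequence feature that the list was not built on. The windows are the 250 bases before the start in RefSeq (GRCh38.p14), all on the plus strand: SREBF2 at chr22:41832855-41833104, MSMO1 at chr4:165327419-165327668, NSDHL at chrX:152830813-152831062 and FDPS at chr1:155308616-155308865. Capitals mark CCAAT on either strand (read as ATTGG on the minus strand), the letters of the element bound by NF-Y, and in SREBF2 also TCACNCCAC, letters of a sterol regulatory element. In NSDHL a CCAAT and an ATTGG overlap as CCAATTGG and were counted as separate matches.
SREBF2: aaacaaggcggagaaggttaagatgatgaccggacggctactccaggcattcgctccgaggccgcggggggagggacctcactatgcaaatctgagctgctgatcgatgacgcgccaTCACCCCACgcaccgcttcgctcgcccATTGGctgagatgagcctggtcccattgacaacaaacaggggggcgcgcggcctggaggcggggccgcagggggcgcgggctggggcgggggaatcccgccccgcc
MSMO1: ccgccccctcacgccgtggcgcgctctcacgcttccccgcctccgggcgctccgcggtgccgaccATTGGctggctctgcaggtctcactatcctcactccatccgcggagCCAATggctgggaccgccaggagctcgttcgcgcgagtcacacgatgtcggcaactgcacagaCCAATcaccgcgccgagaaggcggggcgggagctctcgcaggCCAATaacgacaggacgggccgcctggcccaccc
NSDHL: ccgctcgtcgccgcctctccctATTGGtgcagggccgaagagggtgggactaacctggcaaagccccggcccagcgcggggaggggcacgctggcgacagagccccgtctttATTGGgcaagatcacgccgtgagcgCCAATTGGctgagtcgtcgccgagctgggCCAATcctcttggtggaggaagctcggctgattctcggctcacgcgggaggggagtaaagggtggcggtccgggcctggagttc
FDPS: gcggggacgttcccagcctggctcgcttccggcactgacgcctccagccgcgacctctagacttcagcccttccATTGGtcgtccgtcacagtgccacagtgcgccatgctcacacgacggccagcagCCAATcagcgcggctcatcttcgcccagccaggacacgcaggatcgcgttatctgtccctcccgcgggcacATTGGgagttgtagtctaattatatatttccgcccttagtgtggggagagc
CCAAT was found in 1 place in SREBF2, 4 in MSMO1, 5 in NSDHL and 3 in FDPS. Of the 24 tested members 18 had a promoter in the table, and 16 of those (88.9%) held CCAAT on either strand, against 37.0% of the 27305 genes with a promoter. TCACNCCAC was found in 1 of 18 (5.56%) and in 1.09% of all. Among members that were lower, 8 of the 9 with a promoter held CCAAT, the same 88.9% as among all tested members with a promoter. The lower members are part of that total, and 9 of the 15 lower members had a promoter. Whether CCAAT sets the lower members apart from the rest of the list can therefore not be told here. The motifs were chosen after the expression values were seen, and a match of letters is a description and not a bound site.

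The next largest share of lower genes was among targets of p53, the stress-activated transcription factor that the large T antigen of 293T cells binds. Of 20 tested members, 10 (50%) were lower with hnRNP L siRNA than with SETD2 siRNA, against 4.08% of all genes, and 0 were higher. Differences were negative for 19 of 20, and for 10464 of the 16300 genes tested. The list median was -0.67, and 18 of 20 members lay below the median of all genes (-0.099). Unlike the sterol genes, these stood on both sides of scramble: the list median against scramble was 0.35 with SETD2 depleted and -0.25 with hnRNP L depleted. CDKN1A, the cell cycle inhibitor p21, stood at 29.4 and 26.5 TPM with SETD2 siRNA, 11.7 and 12.6 with hnRNP L siRNA and 15.7 and 21.04 with scramble, a direct log2 difference of -1.17, SE 0.103, adjusted p = 0.00867. The anti-proliferative gene BTG2 stood at 22.1 and 21.4 TPM with SETD2 siRNA, 10.7 and 11.04 with hnRNP L siRNA and 12.1 and 14.2 with scramble (-0.97, SE 0.0947, adjusted p = 0.00972). For both genes the scramble libraries lay between the depletions. BAX, a death effector of the outer mitochondrial membrane, stood at 208 and 166 TPM with SETD2 siRNA, 99.98 and 110.5 with hnRNP L siRNA and 102 and 129 with scramble (-0.82, SE 0.121, adjusted p = 0.0211). DDB2, which recognises UV lesions, stood at 50.6 and 47.8 TPM with SETD2 siRNA, 21.01 and 25.5 with hnRNP L siRNA and 37.03 and 45.6 with scramble (-1.07, SE 0.113, adjusted p = 0.0104). MDM2 and AEN had a log2 difference of -0.84, and PHLDA3, FDXR, CCNG1 and BBC3 lay between -0.79 and -0.66. Against scramble alone, the difference of CDKN1A and that of BTG2 in SETD2 siRNA did not pass the test (adjusted p = 0.194 and 0.0867). With hnRNP L siRNA the differences of CDKN1A (-0.57, adjusted p = 0.0417) and DDB2 (-0.82, adjusted p = 0.0102) from scramble passed it, and that of BTG2 did not (-0.26, adjusted p = 0.189). The death receptor FAS had the opposite sign, at 3.10 and 3.51 TPM with SETD2 siRNA, 4.46 and 4.46 with hnRNP L siRNA and 5.40 and 5.07 with scramble (log2 difference 0.38, adjusted p = 0.131). The count of lower members was 7 with median-ratio scaling, 4 without a variance trend, 0 when any of the 4 libraries was left out, and 0 to 3 when the scramble libraries were kept in those fits.

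Called genes with scramble nearer to hnRNP L siRNA than to SETD2 siRNA were fewer. CENPW, a histone-fold subunit of the inner kinetochore, stood at 36.1 and 36.02 TPM with SETD2 siRNA, 77.9 and 71.8 with hnRNP L siRNA and 70.2 and 75.1 with scramble, a direct log2 difference of 1.04, SE 0.0791, adjusted p = 0.00707. It was the only called gene among 20 tested centromere and kinetochore genes (5%, against 6.08% of all genes). It also passed the test against scramble in SETD2 siRNA (-1, adjusted p = 0.00603), while its level with hnRNP L siRNA did not (0.04, adjusted p = 0.815). REEP1, which shapes tubular endoplasmic reticulum, stood at 5.74 and 5.11 TPM with SETD2 siRNA, 10.2 and 11.2 with hnRNP L siRNA and 7.83 and 7.81 with scramble (0.92, SE 0.127, adjusted p = 0.0188), a difference with scramble between the depletions. MAT2A, which makes the methyl donor S-adenosylmethionine, stood at 60.5 and 58.97 TPM with SETD2 siRNA, 92.7 and 88.9 with hnRNP L siRNA and 92.6 and 85.1 with scramble (0.6, SE 0.0703, adjusted p = 0.0125). EZH1, a methyltransferase of lysine 27 of histone H3, stood at 11.96 and 10.6 TPM with SETD2 siRNA, 17.3 and 17.8 with hnRNP L siRNA and 16.8 and 17.1 with scramble (0.62, SE 0.108, adjusted p = 0.0275). For CENPW, MAT2A and EZH1 the hnRNP L siRNA libraries lay within or close to the scramble range and the SETD2 siRNA libraries lay below it. The difference of MAT2A and that of EZH1 from scramble in SETD2 siRNA did not pass the test (adjusted p = 0.0924 and 0.129).

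On the opposite side, several genes were higher with SETD2 siRNA than with hnRNP L siRNA. BEX1, a small brain-expressed X-linked protein, stood at 24.6 and 24.4 TPM with SETD2 siRNA, 14.1 and 13.5 with hnRNP L siRNA and 12.7 and 14.1 with scramble (-0.8, SE 0.0908, adjusted p = 0.0117), and its rise over scramble passed the test (0.85, adjusted p = 0.0305). Its relative TCEAL4 stood at 325 and 354 TPM with SETD2 siRNA, 208 and 226 with hnRNP L siRNA and 274 and 245 with scramble (-0.65, SE 0.0765, adjusted p = 0.0127). TCEAL7 of the same family went the other way at low levels, with 0.49 and 0.40 TPM with SETD2 siRNA, 1.92 and 1.69 with hnRNP L siRNA and 0.57 and 0.99 with scramble (1.29, SE 0.184, adjusted p = 0.0198). Over the 11 tested BEX and TCEAL genes 1 was higher (9.09%) and 2 were lower (18.2%), against 2% and 4.08% of all genes. The list median was -0.39. PRKCH, protein kinase C eta, stood at 8.58 and 9.53 TPM with SETD2 siRNA, 4.13 and 3.89 with hnRNP L siRNA and 6.49 and 5.10 with scramble (-1.08, SE 0.128, adjusted p = 0.0129). TAMM41, a mitochondrial enzyme of cardiolipin synthesis, stood at 20.6 and 20.9 TPM with SETD2 siRNA, 11.2 and 10.6 with hnRNP L siRNA and 12.8 and 14.9 with scramble (-0.89, SE 0.0962, adjusted p = 0.0107). In PRKCH and TAMM41 scramble lay between the groups, nearer to hnRNP L siRNA. TNNI3, cardiac troponin I, and FAAP20, of the Fanconi anaemia core complex, had log2 differences of -0.98 and -0.85, and the read-through gene NME1-NME2, whose reads NME1 and NME2 share, had -1.07. The rises of TCEAL4, PRKCH and TAMM41 over scramble in SETD2 siRNA did not pass the test (adjusted p = 0.221, 0.194 and 0.148). Nor did those of TNNI3, FAAP20 and NME1-NME2 (adjusted p = 0.188, 0.194 and 0.0599). The fall of TNNI3 from scramble with hnRNP L siRNA passed it (-0.48, adjusted p = 0.0353).

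**Figure D3:**
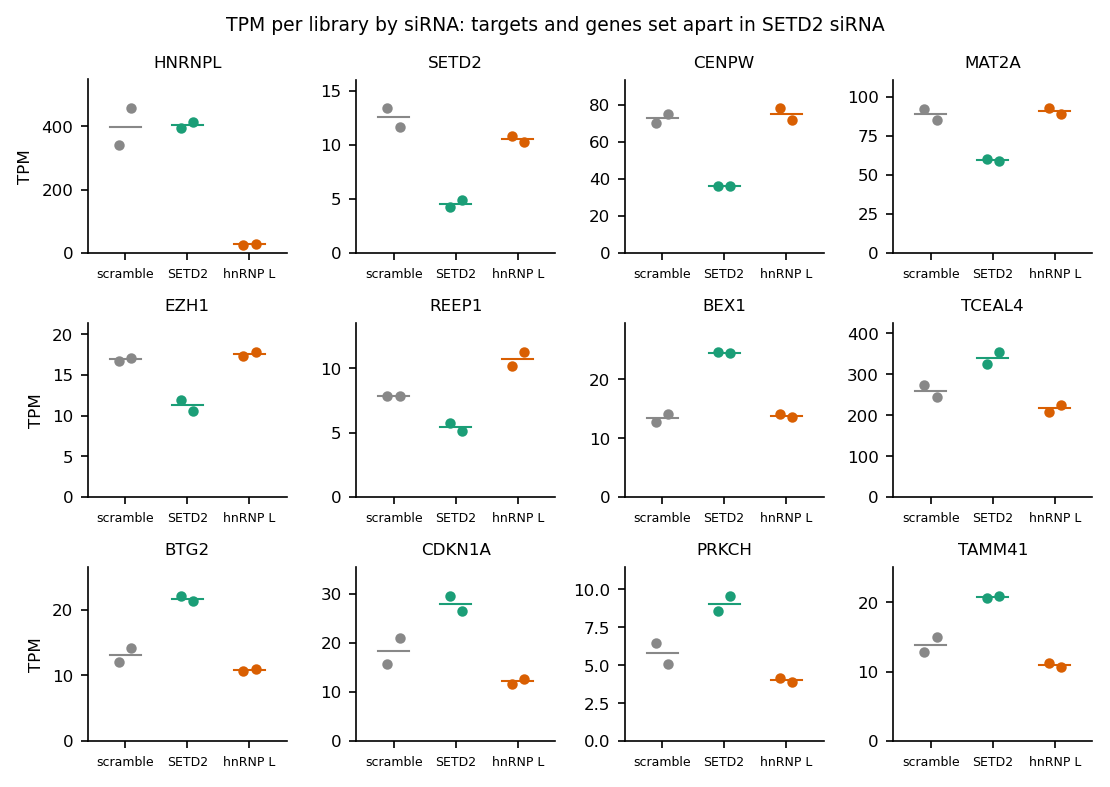
TPM per library for the 2 targets and 10 genes with scramble nearer to hnRNP L siRNA than to SETD2 siRNA, with 2 libraries (points) and their mean (line) for scramble, SETD2 and hnRNP L siRNA, each vertical axis starting at 0. In CENPW, MAT2A and EZH1 the SETD2 siRNA libraries are the low ones and in BEX1 (24.6 and 24.4 TPM) they are the high ones, while CDKN1A, PRKCH and TAMM41 show scramble between the depletions.

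The 13 protein genes of the mitochondrial genome, which encode subunits of the respiratory chain, were the list with the highest median, 0.57. Of these, 6 (46.2%) were higher with hnRNP L siRNA, against 2% of all genes. MT-ND5 stood at 1063 and 1318 TPM with SETD2 siRNA and 2445 and 2303 with hnRNP L siRNA (log2 difference 1, SE 0.108, adjusted p = 0.0107), and its scramble libraries at 3461 and 1288. MT-ND4, MT-ND4L, MT-ATP6, MT-ATP8 and MT-CO1 had log2 differences of 0.96, 0.83, 0.8, 0.75 and 0.6, and MT-ND4 with MT-ND4L and MT-ATP6 with MT-ATP8 overlap on the genome, so they share reads. MT-ND3 did not pass, at 4699 and 3623 TPM with SETD2 siRNA, 4722 and 3366 with hnRNP L siRNA and 6429 and 4142 with scramble, with overlapping libraries. For MT-ND5 the scramble libraries differed from each other by more than the depletions did, and with all 6 libraries in the fit 0 of the 13 were called. Of the 82 tested nuclear genes of the respiratory chain limma called 0, with 25 at an unadjusted p under 0.05 and a median of -0.10.

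**Figure D4:**
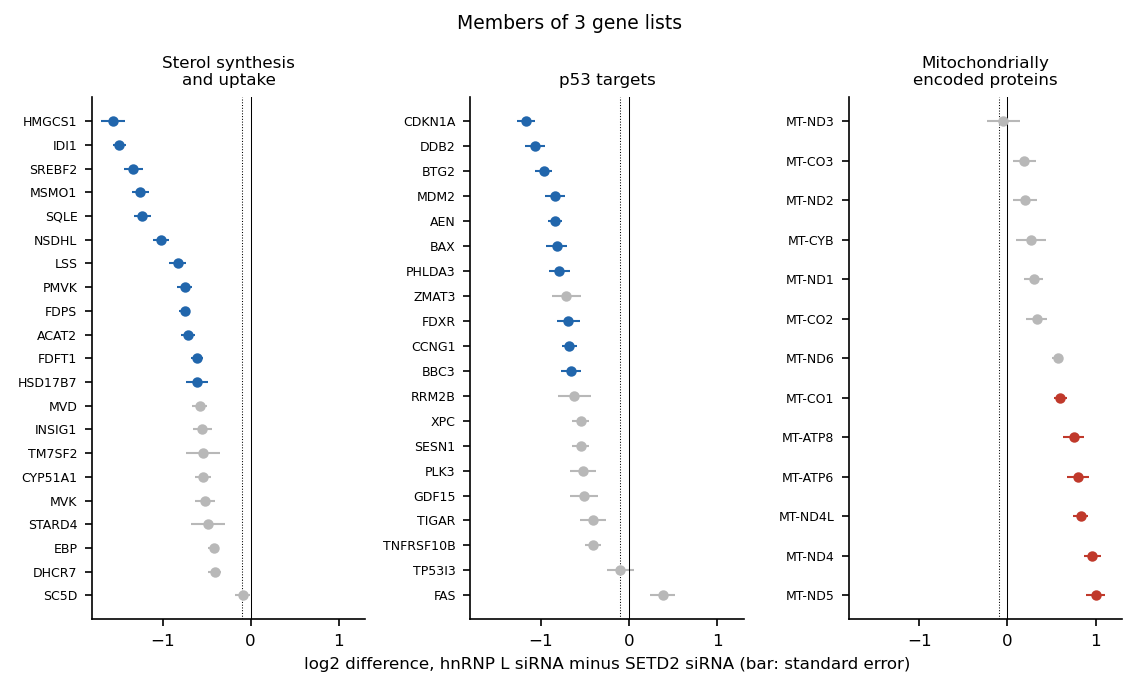
Log2 difference, hnRNP L siRNA minus SETD2 siRNA, with its standard error (bar) for tested members of the sterol, p53 target and mitochondrially encoded lists, without the sterol members not reported here; blue members were called lower, red higher, grey not called, and the dotted line is the median of all genes. All sterol members drawn and 19 of 20 p53 targets lie left of 0, and 12 of 13 mitochondrially encoded genes lie right of it.

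Genes of BMP signalling, in which ligands bind BMPR2 and its partner receptors and SMAD proteins then switch on the ID genes, moved in both directions. The receptor BMPR2 was lower with hnRNP L siRNA, at 5.46 and 6.12 TPM against 10.1 and 12.9 with SETD2 siRNA and 14.04 and 11.9 with scramble (-0.92, SE 0.156, adjusted p = 0.0259). The type I receptor ACVR1 was lower as well, at 4.01 and 4.48 against 6.45 and 6.93 TPM and scramble at 7.75 and 8 (-0.6, SE 0.133, adjusted p = 0.0454). The ID genes, inhibitors of basic helix-loop-helix factors, were higher. ID3 stood at 84.1 and 78.4 TPM with hnRNP L siRNA, 35.97 and 38.01 with SETD2 siRNA and 43.4 and 60.2 with scramble (1.12, SE 0.0797, adjusted p = 0.00652). ID1 stood at 19.7 and 18.8 TPM with hnRNP L siRNA, 10.3 and 10.3 with SETD2 siRNA and 11.4 and 15.8 with scramble (0.87, SE 0.0972, adjusted p = 0.0114). ID2 stood at 214 and 228 TPM with hnRNP L siRNA, 143 and 149.8 with SETD2 siRNA and 130.3 and 176 with scramble (0.59, SE 0.0685, adjusted p = 0.0121). In ID3 and ID1 scramble lay between the depletions. Over the 20 tested genes of the list 3 were higher (15%) and 2 lower (10%), against 2% and 4.08% of all genes. The list median was 0.05.

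Genes of RNA processing, the field in which both targets act, were called at shares near that of all genes (6.08%), with 8.33% of hnRNP and PTB genes, 7.14% of SR proteins and 5.88% of decay and exon junction genes. Of 24 tested hnRNP and PTB genes 2 were lower with hnRNP L siRNA and 0 were higher. HNRNPAB stood at 343 and 369 TPM with SETD2 siRNA, 218 and 226 with hnRNP L siRNA and 273 and 282 with scramble (-0.68, SE 0.0677, adjusted p = 0.01). PTBP2, the neuronal PTB protein, stood at 29.99 and 36.1 TPM with SETD2 siRNA, 17.8 and 20.2 with hnRNP L siRNA and 28.9 and 28.8 with scramble (-0.78, SE 0.123, adjusted p = 0.0233). With median-ratio scaling HNRNPAB was no longer past the fold threshold (-0.57). Of 14 SR proteins, SRSF3 was the called member, at 197 and 186 TPM with SETD2 siRNA, 130.3 and 119 with hnRNP L siRNA and 156 and 187 with scramble (-0.62, SE 0.0755, adjusted p = 0.0141). Among 17 genes of nonsense-mediated decay and the exon junction, MAGOHB, a core exon junction protein, fell from 53.8 and 54.4 TPM with SETD2 siRNA to 25.1 and 30.5 with hnRNP L siRNA, with scramble at 41.01 and 37.9 (-0.96, SE 0.111, adjusted p = 0.0121). Limma called 0 of the 7 CLK and SRPK kinases (3 at an unadjusted p under 0.05) and 0 of the 33 genes of RNA polymerase II and elongation (11 at that level).

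Among chromatin genes, 8% of the H3K36 list, 16.7% of the REST corepressor and PRC2 list, 13% of histone genes and 4.12% of zinc finger genes were called, against 6.08% of all genes. Of 25 tested enzymes and readers of H3K36, NSD1 and SETMAR were lower with hnRNP L siRNA (log2 differences -0.69 and -0.62), and neither median-ratio scaling nor quantile normalization called any. Of 12 REST corepressor and PRC2 genes EZH1 was higher and RCOR2 lower (-0.79). Of 23 tested replication-dependent histone genes, HIST3H2A, HIST1H2BK and HIST1H1C were lower, at -0.91, -0.68 and -0.61, and the list median was -0.41. Among 413 zinc finger genes 3 were higher (0.726%) and 14 lower (3.39%), with ZNF404 (-1.26), ZNF467 (-1.15) and ZNF846 (-1.07) at the low end and ZNF333 (0.94) at the high end.

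The remaining lists held between 0 and 2 called genes per direction, against 2% higher and 4.08% lower among all genes, and with so few calls nothing is read from their counts. In the methionine cycle and polyamine list, with 16 tested, SRM, the spermidine synthase, joined MAT2A as higher. It stood at 309 and 284 TPM with hnRNP L siRNA, 186 and 195 with SETD2 siRNA and 159 and 209 with scramble (0.64, SE 0.0713, adjusted p = 0.0114). Of 29 autophagy and lysosome genes the protease CTSD, at 134 and 135 TPM with SETD2 siRNA, 83.5 and 82.3 with hnRNP L siRNA and 126 and 128 with scramble (-0.69, SE 0.0644, adjusted p = 0.00883), and the kinase ULK1 (-0.59) were lower. Of 28 extracellular matrix and adhesion genes, the collagen chaperone SERPINH1, at 90.8 and 85.7 TPM with SETD2 siRNA, 50.4 and 54.1 with hnRNP L siRNA and 90.8 and 94.5 with scramble (-0.75, SE 0.078, adjusted p = 0.0101), and CCN1 (-0.59) were lower. HSPA1A (0.80) and HSPA1B (0.59), near-identical heat shock genes that can share reads, were higher among 17 heat shock chaperones. Of 23 ATF4 targets SESN2 (-0.83) and NUPR1 (-0.78) were lower. PDK1 (0.77) was higher among 18 glycolysis genes. MED12L (1.10) was higher and MED18 (-0.64) lower among 33 Mediator subunits. AP3B2 (-0.64), FANCD2 (-0.63) and IRF9 (-0.74) were each the called member, lower, of the synaptic vesicle (17), DNA repair (25) and interferon (11) lists. AP3B2 was nevertheless above scramble in both depletions, at 5.0 and 4.6 TPM with SETD2 siRNA, 3.04 and 2.75 with hnRNP L siRNA and 1.55 and 1.59 with scramble. Its differences from scramble passed the test with SETD2 siRNA (1.36, adjusted p = 0.0153) and with hnRNP L siRNA (0.71, adjusted p = 0.0229). Limma called 0 of 84 ribosomal proteins, 28 replication genes, 20 immediate early and MAPK genes, 18 genes of the endoplasmic reticulum chaperone list and 11 tubulins, whose medians lay between -0.22 and 0.00. At an unadjusted p under 0.05 these lists held 18, 9, 7, 7 and 5 genes, in that order.

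**Figure D5:**
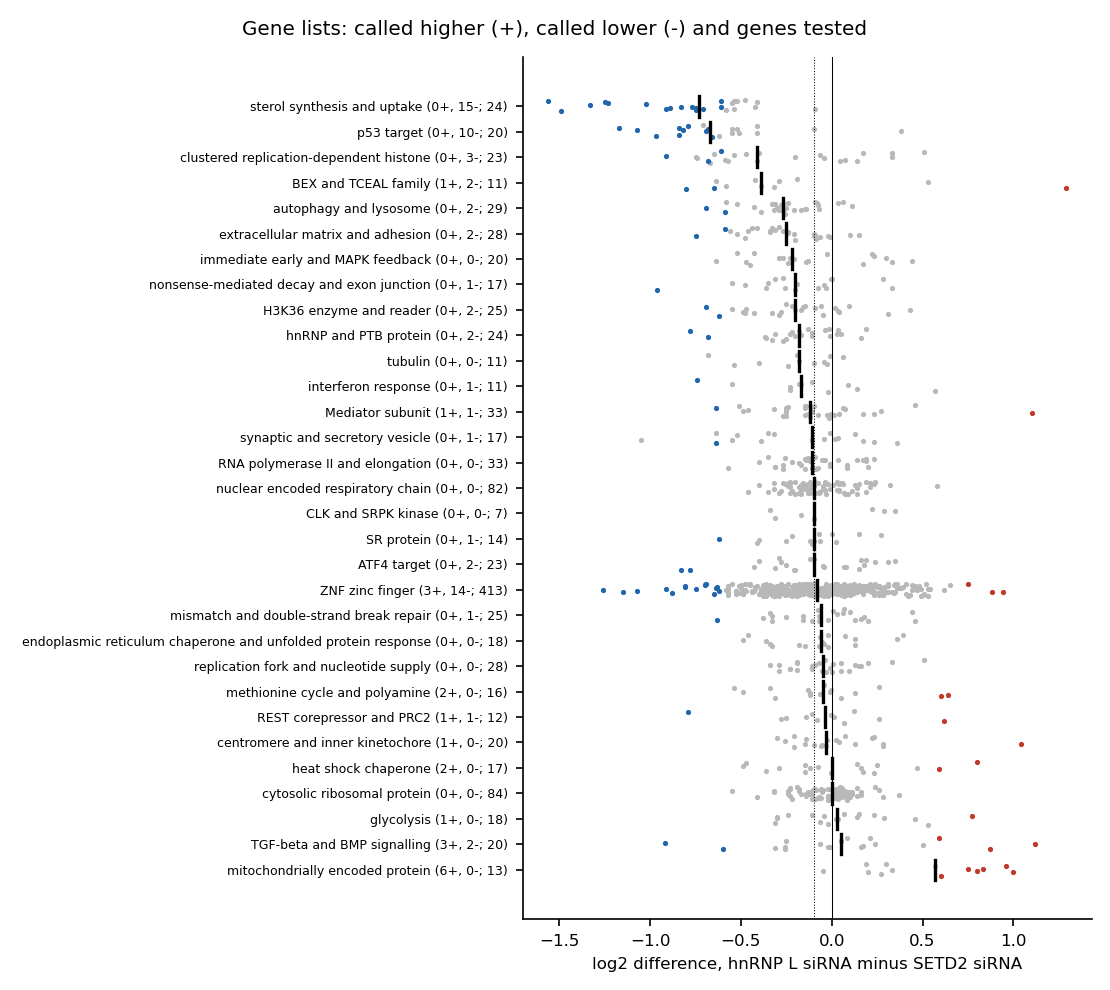
Log2 difference, hnRNP L siRNA minus SETD2 siRNA, of every tested member (point) of the 31 lists, ordered by list median (black bar), with the counts called higher, called lower and tested beside each name and the median of all genes as a dotted line. The sterol (0 higher, 15 lower of 24) and p53 target (0 higher, 10 lower of 20) lists lie to the left, the mitochondrially encoded list (6 higher of 13) to the right, and the medians of the other lists lie between -0.41 and 0.05.

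Since long non-coding RNAs made up so many of the higher genes, those with the largest differences were also read out, chosen after their values were seen. AL391834.1 stood at 1.33 and 1.32 TPM with SETD2 siRNA, 11.1 and 12.4 with hnRNP L siRNA and 2.70 and 1.92 with scramble (2.75, SE 0.138, adjusted p = 0.00291). LINC00467 rose from 3.83 and 4 TPM with SETD2 siRNA to 10.4 and 11.7 with hnRNP L siRNA, with scramble at 4.39 and 4.67 (1.39, SE 0.126, adjusted p = 0.00883). MHENCR rose from 21.2 and 19.3 to 44.5 and 51.4 TPM, with scramble at 22.5 and 23.7 (1.22, SE 0.106, adjusted p = 0.00867). In all 3 the SETD2 siRNA libraries lay below the scramble libraries and the hnRNP L siRNA libraries above them. PANTR1 was lower with hnRNP L siRNA, at 2.05 and 2.94 TPM against 8.04 and 8.76 with SETD2 siRNA and 8.12 and 10.2 with scramble (-1.59, SE 0.182, adjusted p = 0.0121). PURPL, a long non-coding RNA regulated by p53, stood at 17.02 and 15.1 TPM with SETD2 siRNA, 7 and 7.07 with hnRNP L siRNA and 11.8 and 11.5 with scramble (-1.13, SE 0.113, adjusted p = 0.01), with scramble between the depletions as for CDKN1A. Among other biotypes, AC242498.1 was listed at 0 in both SETD2 siRNA and both scramble libraries and at 45.9 and 73.6 TPM with hnRNP L siRNA. AC242498.1 is a short processed pseudogene (chr1:144965025-144965135) that overlaps SRGAP2B on the opposite strand, so the origin of its reads is uncertain. It passed the filter on mean TPM through the hnRNP L siRNA libraries alone. The copies of the U1 small nuclear RNA gene carried identical values within sets. RNU1-27P, RNU1-2 and RNU1-4 were listed at 0 with SETD2 siRNA and 17.6 and 3.10 TPM with hnRNP L siRNA. RNU1-28P, RNU1-1, RNVU1-18 and RNU1-3 were listed at 14.03 and 28.7 TPM with SETD2 siRNA and 0 and 3.10 with hnRNP L siRNA. With scramble, the copies of both sets stood at 5.83 and 11.59 TPM. These sets moved in opposite directions while sharing a near-identical sequence, so their split is uncertain.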

How the data were processed

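RNA was taken from wild-type 293T cells 72 h after transfection of scramble, SETD2 or hnRNP L siRNA. Per the methods, the authors sequenced the libraries, aligned the reads with STAR 2.6.1c to hg38 with Ensembl release 96 and quantified genes with RSEM 1.3.0. The deposited values are TPM, which sum to 1000000 in each library and hold no counts, so the number of reads behind a value is not given. The paper's count test was therefore not used here. The study lists the aligned read pairs of each library, which differ between libraries and were not used here. The study's methods describe the replicates as biological.

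Values were analysed as log2(TPM + 0.5) for genes whose TPM averaged 0.5 or more across the 6 RNA-seq libraries. A fold change on this scale understates the change of low genes. The 4 siRNA libraries were fitted with limma 3.58.1 (R 4.3.3), with a variance trend and empirical Bayes moderation, p-values were adjusted by Benjamini-Hochberg over 16300 genes, and genes past a 1.5-fold change with an adjusted p below 0.05 were called. Differences from scramble came from a fit of all 6 libraries, and both share the scramble libraries. The code was tested on simulated data. Biotypes and positions are from GENCODE 44 (hg38, 412 genes without an entry).

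Named genes were the targets, the 12 protein-coding and 4 other genes with the largest difference per direction averaging 5 TPM or more, the 8 per direction with scramble nearer to hnRNP L siRNA, and up to 4 called members of each of 31 lists (2 abundant members where none was called). Members and lists were chosen with earlier results of these data known. The ChIP-seq samples were not used here. Alternatives were other pseudocounts, filters, scalings, thresholds and sets of libraries. A few genes are not reported here.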

Additional observations from a re-analysis of the deposited data

How the results depend on the processing

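The direction of both targets was the same in all alternatives. Against 326 genes higher and 665 lower, the counts fell to 0 and 1 with no filter on TPM, to 170 and 310 without a variance trend and to 138 and 153 at a fold change above 2. Lower genes numbered 389 with median-ratio scaling, 414 with quantile normalization and 1236 with no fold-change cut-off. Without mitochondrially encoded genes 343 were higher and 498 lower. Leaving out a library gave 0 to 28 higher and 0 to 6 lower in the 4-library fit, and 51 to 81 higher and 71 to 158 lower (76 without SETD2 siRNA replicate 2) with the scramble libraries in the fit, an alternative chosen after seeing the data. In those fits a lone library is assumed to vary like the others. Of 105 named genes 89 were called, and 84 of these stayed called with all 6 libraries, 70 with median-ratio scaling, 72 with quantile normalization and 54 without a variance trend. Signs reversed only in genes that were not called: HSP90B1 (-0.03 without SETD2 siRNA replicate 2, 0.18 without replicate 3), RPL36A (-0.16, quantile normalization), TUBA1B (0.02, median-ratio scaling) and SSRP1 (0.1 with median-ratio scaling, 0.02 with quantile normalization, 0.04 without mitochondrially encoded genes or SETD2 siRNA replicate 3, 0.06 without hnRNP L siRNA replicate 1, and -0.08, not reversed, without its replicate 2). The cause of these changes was not tested. No paired analysis was possible because the SETD2 siRNA libraries are numbered 2 and 3 and the hnRNP L siRNA libraries 1 and 2, which share 1 number. TPM carry no read counts, so counting error was not given.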
